A study of Mus musculus with 9 samples.

Results

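The mitochondrial ribosomal protein genes are the nuclear genes for the protein subunits of the mitochondrial ribosome. They were taken as the genes whose symbol is Mrpl (large subunit) or Mrps (small subunit) followed by a number and at most 1 letter, kept where 3 or more of the 9 libraries reached 0.5 FPKM. FPKM counts fragments per kilobase of transcript, corrected for the size of the library. This gave 78 genes of 14013 kept genes, 49 for the large and 29 for the small subunit, and the filter removed 0 of the genes matching by symbol. Their levels were described in mouse medial prefrontal cortex, a frontal cortical area, sequenced as polyadenylated RNA in 3 groups of 3 libraries. The running model was labelled as exercise, and by the series description running was studied in animals under chronic unpredictable stress. The CUS model was labelled as stress alone, and the control as having no stress. All 3 groups carry the label terms 4 week and week 8, with no word on which period each one marks. The sources used here give neither strain, sex and age nor whether a library holds 1 animal or a pool. The p-values below therefore describe the scatter among these libraries, part of which may be technical.

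The mitochondrial ribosome translates the few messenger RNAs encoded by mitochondrial DNA, all of them for subunits of the respiratory chain and of ATP synthase. Its RNA is made inside the organelle, while its proteins are made in the cytosol and imported. Part of the proteins have counterparts in bacterial ribosomes, and the rest were gained in the mitochondrial lineage. In neurons, mitochondria supply ATP and buffer calcium at synapses, and defects of mitochondrial translation in humans cause encephalopathies.

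CUS replicate 3 stood apart from the other libraries. Its FPKM values summed to 423257, against 370441 to 393663 in the other 8, and its mean Pearson r with the other libraries over kept genes was 0.987, against 0.99 to 0.993. For the comparisons that include CUS, the main counts and medians and part of the single genes are therefore also given without it. Summaries by transcript length and promoter motif, and those of other gene sets, include it. Markers fixed for the cortex were present in every library: the summed FPKM of 6 excitatory neuron genes lay between 1790 and 1880 in running, 1710 and 1780 in CUS and 1750 and 1810 in control libraries. The running sums lay above the CUS sums. The summed level of 6 inhibitory neuron markers was 666 to 722 in running, 768 to 867 in CUS and 685 to 860 in control libraries, with CUS above running. Astrocyte markers (4 genes) summed to 276 to 322 in running, 255 to 274 in CUS and 286 to 311 in control libraries, so that CUS lay below both other groups. Microglia markers (4 genes) summed to 78.2 to 85.0 in running, 85.2 to 104 in CUS and 81.9 to 89.7 in control libraries, with CUS above running. Oligodendrocyte markers (5 genes) summed to 495 to 560 in running, 417 to 628 in CUS and 564 to 1060 in control libraries. Sums of 4 endothelial and 4 striatal genes overlapped between running and CUS. That of 3 blood genes was 693 to 867 in running, 474 to 736 in CUS and 334 to 599 in control libraries, and that of 4 choroid plexus genes reached 215 in a control library, against at most 40.6 in running and 32.6 in CUS libraries. These sums lean on the highest gene of each list. Over the 9 libraries, Camk2a had 824 to 1030 FPKM, Sst 441 to 653, Slc1a2 188 to 239, Mbp 289 to 754 and C1qa 40.0 to 59.3. In the choroid plexus list Ttr had 5.65 to 212 FPKM, while no other gene of that list exceeded 1.51. A difference between sums may therefore be that of 1 gene and need not hold for the others of its cell type. None of the marker genes was at 0 in all libraries. The part of cell composition in the results was not tested, and in tissue RNA fewer cells of a type and less RNA per cell cannot be told apart.

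The members were expressed above the typical gene. Their mean FPKM over 9 libraries ranged from 4.03 to 75.4, with a median of 24.3 for the large and 22.7 for the small subunit, against 9.18 over all kept genes. The highest large subunit genes were Mrpl42 (mean 68.8 FPKM), Mrpl30 (56.5) and Mrpl12 (49.4), and the lowest were Mrpl17 (4.03), Mrpl19 (5.72) and Mrpl1 (6.59). Among small subunit genes, Mrps21 (75.4), Mrps12 (51.1) and Mrps18a (48.6) were highest, and Mrps28 (9.74), Mrps31 (10.9) and Mrps35 (11.8) lowest.

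Levels of the members moved together from library to library. The summed FPKM of the 78 genes was 2011, 1853 and 1861 in the running libraries, 2175, 2076 and 2583 in the CUS libraries and 1955, 1945 and 2104 in the control libraries. The 3 CUS sums lay above all running sums, and CUS replicate 2 lay below control replicate 3. For a score that weighs each gene alike, the log2(FPKM + 0.5) value of a gene was centred on its mean over 9 libraries and averaged over genes. The large subunit scored -0.03, -0.15 and -0.14 in running, 0.08, 0.02 and 0.31 in CUS and -0.06, -0.05 and 0.02 in control libraries. The small subunit scored 0.00, -0.14 and -0.14 in running, 0.09, 0.03 and 0.30 in CUS and -0.09, -0.08 and 0.03 in control libraries. Over the same libraries the average kept gene scored between -0.04 and 0.03. CUS replicate 3 was the highest library for 71 of 78 members (91.0%), against 30.9% of kept genes. That library was also the lowest for 20.9% of kept genes, but for 0 members. Running replicates 2 and 3 were each the lowest library for 30 members (38.5%), against 13.9% and 16.0% of kept genes.

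Across the 9 libraries, the Pearson r of a member with the mean of the other members ranged from 0.44 to 0.99, with a median of 0.88, and 60 of 78 lay above 0.8. These are descriptions over libraries that share CUS replicate 3, and they carry no test. The members that followed the others least were Mrps5 (r = 0.44), Mrps27 (0.46), Mrps2 (0.56), Mrpl1 (0.59) and Mrpl37 (0.59), of which all but Mrps2 and Mrpl1 fall outside the naming rule and were picked after their values were seen.

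**Figure D1:**
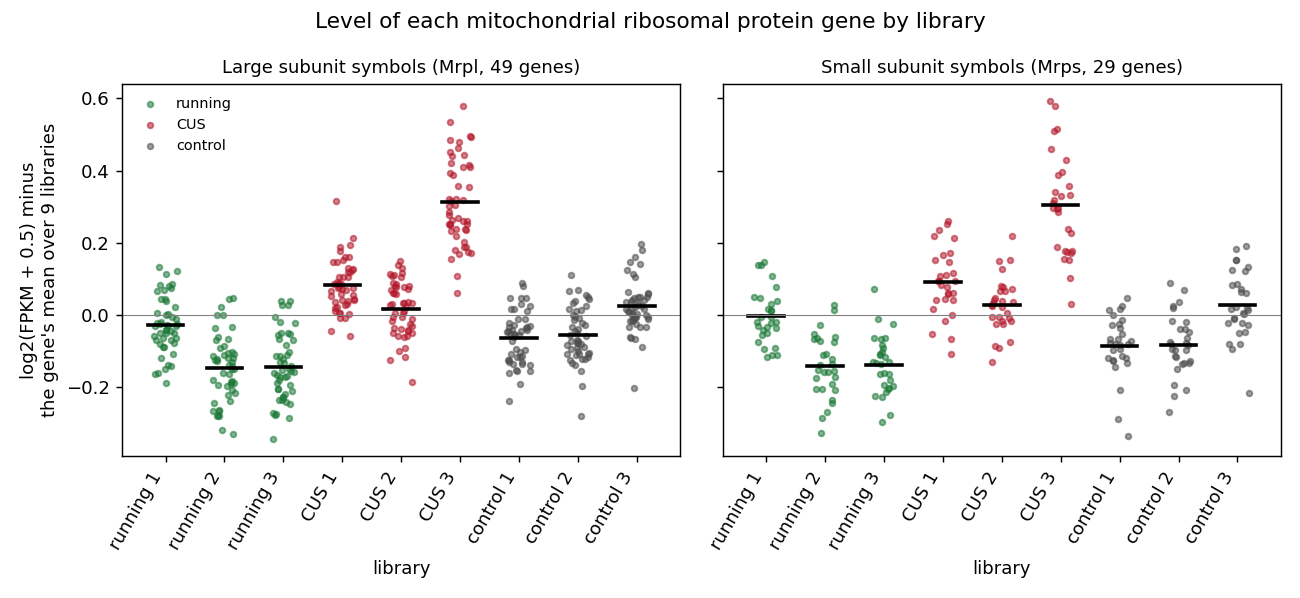
Level of each of the 49 large subunit genes (left) and 29 small subunit genes (right) in the 9 libraries, as log2(FPKM + 0.5) minus the mean of the gene over 9 libraries. Each point is a gene, and the black bar is the mean of the genes, which is highest in CUS replicate 3 (0.31 and 0.30) and lowest in running replicates 2 and 3.

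In the running model compared with the CUS model, all 78 members had a lower mean level, but none passed the test on its own. The median log2 difference was -0.26 for the large and -0.24 for the small subunit, against -0.03 over all kept genes, of which 57.8% were lower. With limma and adjustment over 14013 genes, 0 members were called at an adjusted p under 0.05, where 0.00714% of kept genes were called. The adjusted p of the members started at 0.0776 for the large and 0.0884 for the small subunit. At an adjusted p under 0.1 there were 17 members, 11 large and 6 small subunit genes, all lower in running, against 4.5% of kept genes. At an unadjusted p under 0.05, 32 large and 19 small subunit genes were lower, 51 in all (65.4%), against 15.7% of kept genes. The running values lay entirely below the CUS values for 42 members (53.8%), against 15.9% of kept genes.

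Much of the size of these differences rests on CUS replicate 3. Without it, 75 members were lower and 3 higher, the medians were -0.15 and -0.17, and 31 members had an unadjusted p under 0.05, against 12.3% of kept genes. Without running replicate 3 this count was also 31, against 9.73% of kept genes. At an adjusted p under 0.1 there were 55 members without CUS replicate 2 (14.9% of kept genes), 8 without running replicate 1 (2.11%), 1 without CUS replicate 3 (0.136%) and 1 without control replicate 2 (0.136%). Without any of the other 5 libraries there were 0. Without CUS replicate 2, 26 members were called lower at an adjusted p under 0.05, 17 large and 9 small subunit genes, against 7.56% of kept genes. Library quality weights were 2.61, 0.575 and 0.244 for CUS replicates 1, 2 and 3, so the weighted CUS mean rested mostly on replicate 1. With these weights, 26 members were called lower (14 large, 12 small), against 10.6% of kept genes. Without weights and without CUS replicate 3, 0 members and 0 kept genes were called.

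Among large subunit genes, the smallest p belonged to Mrpl46, Mrpl53, Mrpl38, Mrpl2 and Mrpl15. Mrpl46 (GRCm38.p6 chromosome 7, 78775341 to 78783089) encodes a mitochondria-specific protein of the central protuberance, the ridge of the large subunit that faces the small one. It had 15.93, 15.06 and 15.03 FPKM in running, 19.56, 19.94 and 23.71 in CUS and 18.12, 17.19 and 18.26 in control libraries. The 3 running values were the 3 lowest, and the 3 CUS values the 3 highest, of the 9. Its log2 difference between running and CUS was -0.44 (SE 0.0754, limma adjusted p = 0.0776), and -0.35 without CUS replicate 3. Mrpl38, a further protein of the central protuberance, had 31.28, 29.50 and 30.21 FPKM in running and 35.64, 35.65 and 38.60 in CUS libraries, with 31.97, 32.04 and 33.93 in controls. The groups of running and CUS did not overlap (log2 -0.27, SE 0.0561, limma adjusted p = 0.0776).

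Mrpl53, a mitochondria-specific protein at the base of the flexible stalk that recruits translation factors, had 27.44, 22.69 and 24.22 FPKM in running, 31.84, 30.81 and 32.77 in CUS and 29.37, 29.21 and 29.09 in control libraries. The running values lay below those of both other groups, and the log2 difference from CUS was -0.36 (SE 0.0687, limma adjusted p = 0.0776), or -0.34 without CUS replicate 3. The span of Mrpl53 overlaps that of Ccdc142. Mrpl2, whose bacterial counterpart lies close to the peptidyl transferase centre, had 24.45, 20.88 and 22.04 FPKM in running, 31.44, 26.24 and 30.77 in CUS and 24.41, 23.05 and 25.28 in control libraries. The CUS values were the highest of the 9, while running and control overlapped (running minus CUS log2 -0.38, SE 0.0823, limma adjusted p = 0.0776). Its span overlaps that of Klc4. Mrpl15 had 7.13, 7.04 and 6.88 FPKM in running, 8.90, 8.14 and 9.64 in CUS and 7.56, 7.23 and 7.37 in control libraries, with no overlap between any of the 3 groups.

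Among small subunit genes, the smallest p belonged to Mrps6, Mrps34, Mrps7, Mrps24 and Mrps10. Mrps6, a homologue of a bacterial small subunit protein, had 24.54, 27.07 and 24.68 FPKM in running, 28.40, 31.00 and 34.17 in CUS and 25.25, 23.15 and 22.78 in control libraries. All CUS values lay above all others, and the log2 difference between running and CUS was -0.29 (SE 0.0765, limma adjusted p = 0.0884). The gene shares its span with Slc5a3, a myo-inositol transporter gene, so fragments could be split between them in the authors' counting. Mrps34, a mitochondria-specific protein needed for small subunit stability, had 29.96, 29.07 and 28.18 FPKM in running, 33.33, 35.98 and 36.10 in CUS and 30.32, 32.82 and 37.05 in control libraries. Here running lay below CUS (log2 -0.27, SE 0.0737, limma adjusted p = 0.0924), and the controls spread over the whole range of CUS. Mrps7, Mrps24 and Mrps10, all with bacterial counterparts in the head of the small subunit, had log2 differences of -0.25, -0.31 and -0.35. Their adjusted p by limma lay between 0.0928 and 0.0969, and for each of them the running values lay below the CUS values. The span of Mrps7 overlaps those of Gga3 and Mif4gd.

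**Figure D2:**
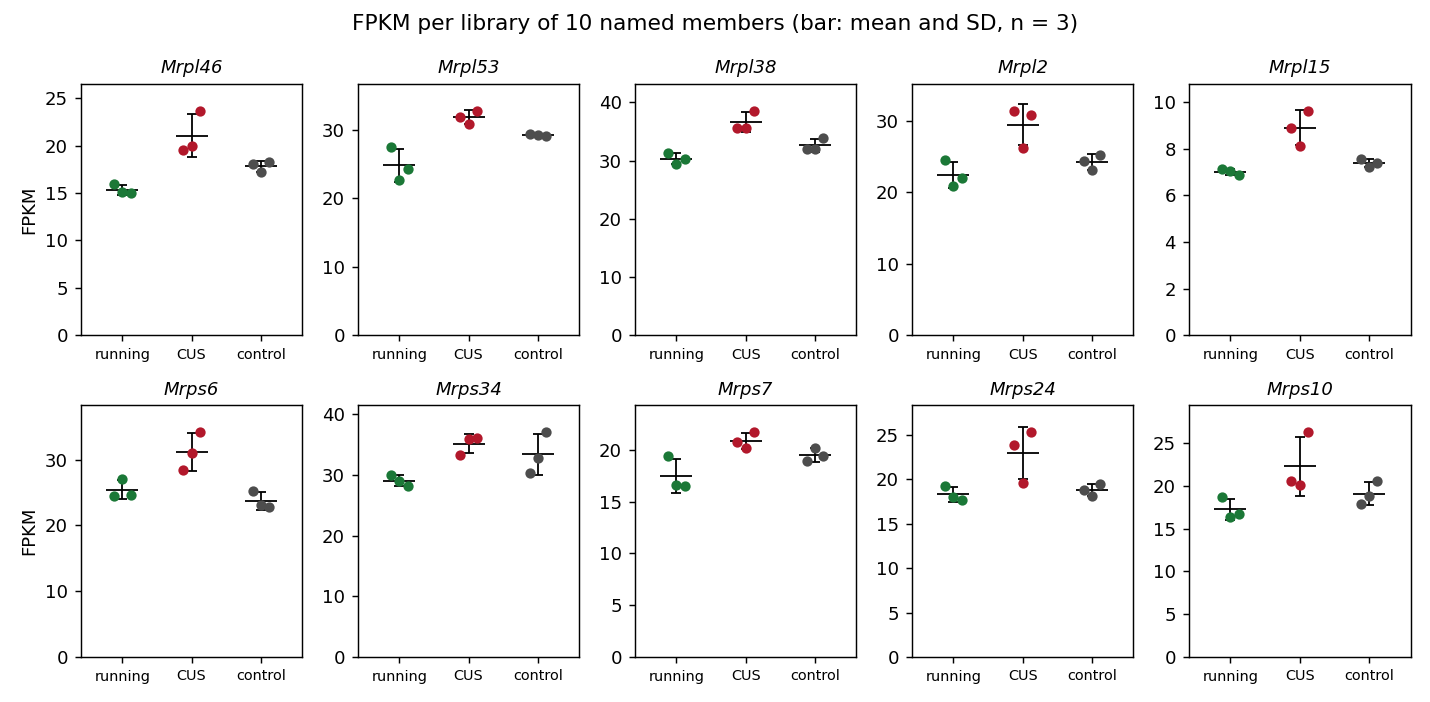
FPKM per library of the 10 members with the smallest p between running and CUS, 5 of the large subunit (top) and 5 of the small subunit (bottom). Points are libraries, bars the mean and SD (n = 3), and in each panel the 3 running values lie below the 3 CUS values.

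The members at the other end differed little between running and CUS. Mrps2 had 17.66, 15.85 and 17.58 FPKM in running and 16.09, 16.40 and 18.97 in CUS libraries, and the 2 groups overlapped (log2 -0.01, SE 0.0786). Mrpl1 had 7.13, 6.39 and 6.74 FPKM in running and 6.57, 6.27 and 8.21 in CUS libraries (log2 -0.04, SE 0.0987), again with overlap. Mrpl50 had a log2 difference of -0.05 and Mrpl19, among the members with the lowest level, of -0.06. Without CUS replicate 3, Mrps2, Mrpl1 and Mrpl50 were the 3 members on the higher side, at 0.06, 0.07 and 0.05.

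**Figure D3:**
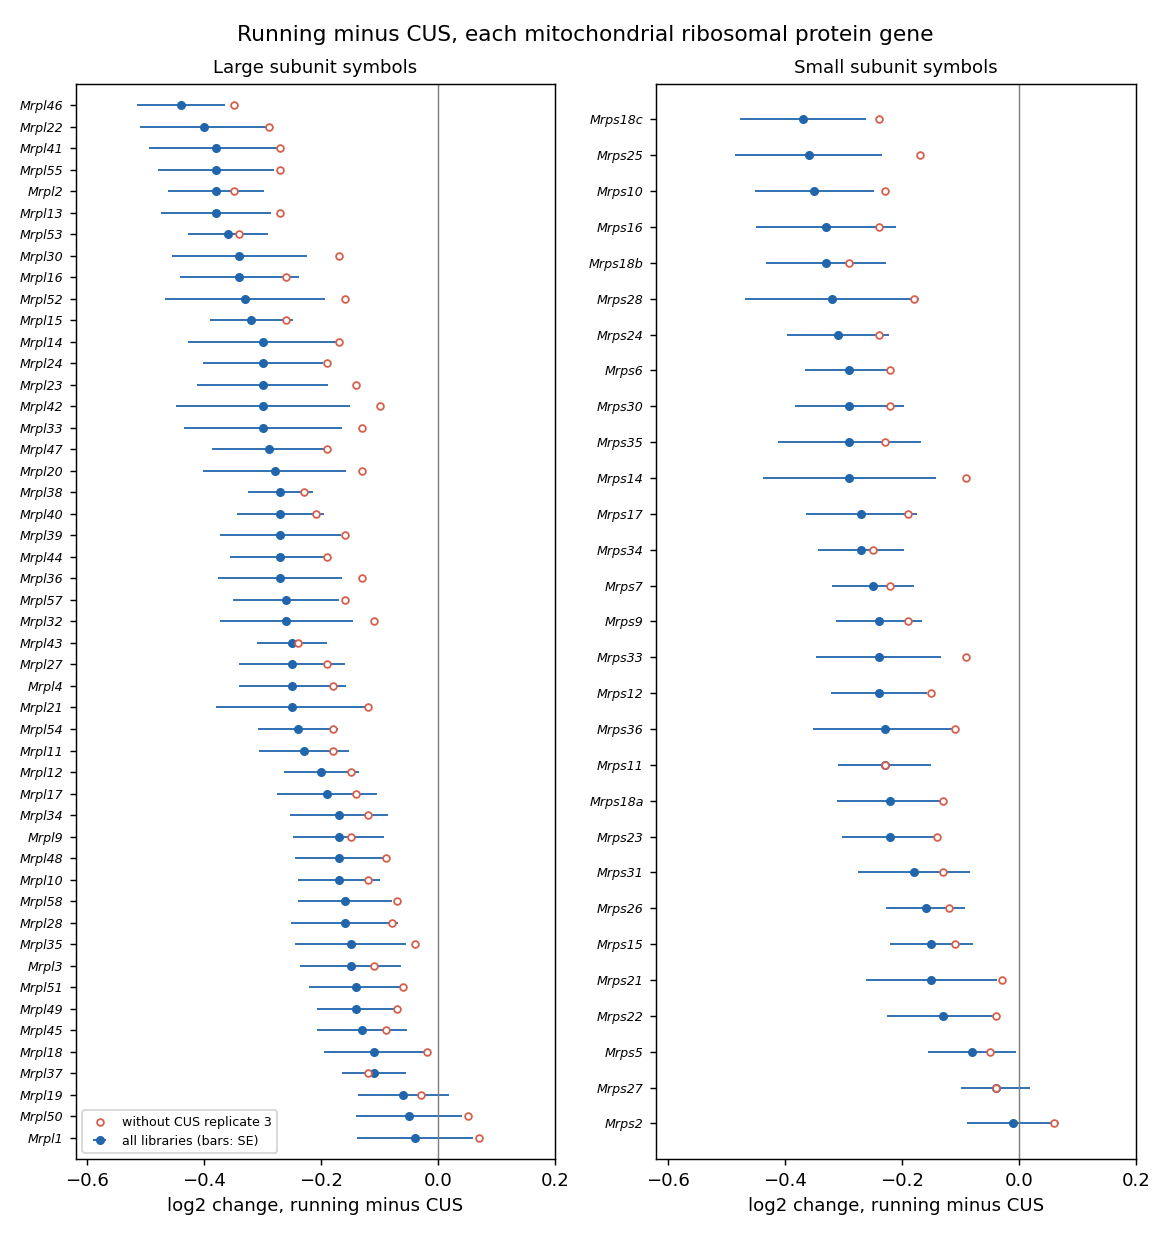
Log2 difference between running and CUS for each large subunit gene (left) and small subunit gene (right), with the SE from limma (blue), and the same without CUS replicate 3 (open red). Every blue point lies below 0, between -0.44 and -0.01, and the open points lie closer to 0 for most genes.

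Medians between running and CUS were negative for every group of proteins examined by role or place in the ribosome. Proteins with a bacterial counterpart and mitochondria-specific ones had the same median in the large subunit (-0.26 for 30 and -0.26 for 19 genes), and medians of -0.26 for 16 and -0.23 for 10 genes in the small subunit. The small subunit groups leave out Mrps18a, Mrps30 and Mrps36, which are not part of that subunit in the assembled ribosome, and follow structural names, by which Mrps18b is mitochondria-specific. The 5 genes of the stalk and its base had a median of -0.23, the 8 of the central protuberance -0.27 and the 8 around the polypeptide exit site -0.28. Without CUS replicate 3, these medians were -0.18, -0.20 and -0.17. The large subunit medians were then -0.14 (bacterial counterpart) and -0.16 (mitochondria-specific), and those of the small subunit -0.19 and -0.14. Mrpl12, the stalk protein that has also been reported to bind the mitochondrial RNA polymerase, had 47.09, 49.27 and 44.31 FPKM in running and 51.97, 52.09 and 58.08 in CUS libraries. Those values did not overlap (log2 -0.20, SE 0.0642, limma adjusted p = 0.11). Mrpl10, which holds Mrpl12 on the ribosome, had a log2 difference of -0.17.

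At the exit site, Mrpl44, a protein with a ribonuclease-like fold, had 13.42, 11.93 and 12.23 FPKM in running and 14.30, 14.33 and 17.19 in CUS libraries, without overlap (log2 -0.27, SE 0.0862). Mrpl45, which links the ribosome to the inner membrane, had a smaller log2 difference of -0.13 and overlapping groups. Mrps12, a protein of the decoding centre, had 50.13, 45.48 and 46.36 FPKM in running and 54.34, 50.60 and 64.13 in CUS libraries (log2 -0.24, SE 0.0822, limma adjusted p = 0.123). Its groups did not overlap.

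Some members do not sit where their symbol says. Mrps18a, Mrps18b and Mrps18c are related in sequence to the same bacterial small subunit protein, but only Mrps18c takes its place in the ribosome and is grouped here with the bacterial counterparts. Mrps18a, like Mrps30, is part of the large subunit in structures of the mammalian ribosome. Relative to CUS, running differed by log2 -0.22 for Mrps18a, -0.33 for Mrps18b, -0.37 for Mrps18c and -0.29 for Mrps30. Mrps36 is now regarded as a component of the 2-oxoglutarate dehydrogenase complex and not of the ribosome (log2 -0.23, SE 0.122). Sorted by structure in place of symbol, 51 large subunit genes had a median of -0.26 and 26 small subunit genes one of -0.25. Mrpl58, a peptidyl-tRNA hydrolase that rescues stalled ribosomes and is built into the large subunit, had 34.58, 37.27 and 36.83 FPKM in running and 37.06, 39.14 and 45.58 in CUS libraries, with a slight overlap (log2 -0.16, SE 0.0799).

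Transcript length moved with the change. The median transcript length was 848 bases for the members and 1500 for kept genes, and across 13766 kept genes the Spearman correlation of length with the running minus CUS difference was 0.34. It was 0.22 across the 78 members. These are descriptions across genes, which are not independent replicates. Among the 49 members of 500 to 1000 bases the median difference was -0.27, against -0.09 for 4408 other kept genes of that length, and in the bin of 1000 to 1500 bases it was -0.24 for 11 members against -0.08. After removal of the trend of length and GC content in each library, the medians were -0.18 for both subunits when a gene had its median transcript length. They were -0.11 for both when it had that of its longest transcript, a choice made after seeing the data, with 66 members lower and 12 higher. Rescaling to TPM moved the median of all kept genes to 0.06 and the members to -0.16 (large) and -0.14 (small), with 72 lower and 6 higher. The part of length in the result was not tested further.

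**Figure D4:**
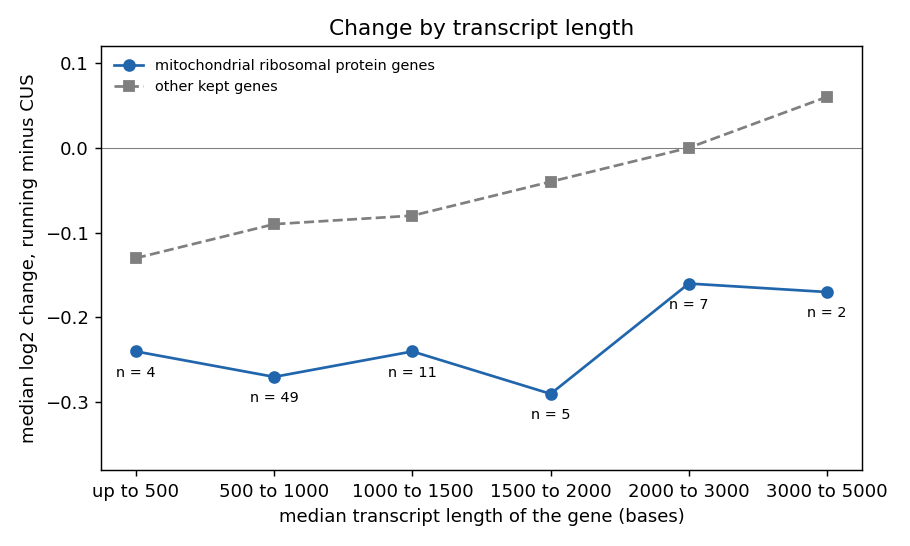
Median log2 difference between running and CUS by median transcript length, for the 78 members (blue, with their number) and for other kept genes (grey). The medians of the members lie between -0.29 and -0.16, below those of other genes (-0.13 to 0.06) in each of the 6 bins, some of which hold few members.

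Promoters are shown for some of the named members, with motifs commonly described in genes of mitochondrial proteins. The printed windows are examples and do not stand for the members with the smallest p between running and CUS. Windows of 250 bases before to 50 after the gene start (RefSeq, GRCm38.p6) were found for 69 of 78 members, 75 windows in all, and 14378 windows of 11159 kept genes. Both strands were searched for the palindromic motif of the factor NRF1, for that of the ETS family that includes GABPA (CCGGAAG) and for that of YY1 (AAGATGGC), none of which contains another. Capitals mark these motifs. Among the members with the smallest p, the windows of Mrpl2, Mrps6 and Mrps10 hold none of the 3 motifs and are not printed. That of Mrps7 holds a YY1 motif and is not printed either. For Mrpl38, Mrpl15 and Mrps34 no window was found. Mrpl46 and the small subunit gene Mrps11 lie head to head on chromosome 7, with 41 bases between their spans, so that their windows overlap. The window of Mrpl46 (chr7:78783040-78783339 on the minus strand) holds none of the 3 motifs, and that of Mrps11 (chr7:78782881-78783180 on the plus strand) holds a YY1 motif. Mrpl53 (chr6:83108858-83109157 on the plus strand) holds 2 ETS motifs, starting 59 and 16 bases upstream of the start. Mrpl12 (chr11:120484387-120484686 on the plus strand) holds an NRF1 motif 81 bases upstream. Mrps24 (chr11:5707652-5707951 on the minus strand) holds a YY1 motif just after the start, at base 37, and Mrps12 (chr7:28741772-28742071 on the minus strand) an ETS and a YY1 motif.
Mrpl46: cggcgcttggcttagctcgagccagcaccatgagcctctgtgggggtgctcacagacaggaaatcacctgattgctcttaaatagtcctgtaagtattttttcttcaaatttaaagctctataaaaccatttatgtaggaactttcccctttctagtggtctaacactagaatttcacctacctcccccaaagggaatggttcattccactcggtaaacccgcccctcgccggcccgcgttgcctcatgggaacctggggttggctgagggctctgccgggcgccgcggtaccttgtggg
Mrps11: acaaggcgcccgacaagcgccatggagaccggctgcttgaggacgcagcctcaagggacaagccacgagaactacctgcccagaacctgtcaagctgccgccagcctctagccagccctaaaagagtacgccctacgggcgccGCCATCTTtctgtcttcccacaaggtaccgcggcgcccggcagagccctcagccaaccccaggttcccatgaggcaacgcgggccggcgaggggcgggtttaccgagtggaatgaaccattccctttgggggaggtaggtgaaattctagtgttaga
Mrpl53: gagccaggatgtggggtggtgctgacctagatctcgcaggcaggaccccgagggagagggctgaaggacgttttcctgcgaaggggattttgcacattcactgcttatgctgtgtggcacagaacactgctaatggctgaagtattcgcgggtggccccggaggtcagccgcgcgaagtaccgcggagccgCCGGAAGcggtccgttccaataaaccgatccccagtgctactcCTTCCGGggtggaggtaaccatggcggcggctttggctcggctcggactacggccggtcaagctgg
Mrpl12: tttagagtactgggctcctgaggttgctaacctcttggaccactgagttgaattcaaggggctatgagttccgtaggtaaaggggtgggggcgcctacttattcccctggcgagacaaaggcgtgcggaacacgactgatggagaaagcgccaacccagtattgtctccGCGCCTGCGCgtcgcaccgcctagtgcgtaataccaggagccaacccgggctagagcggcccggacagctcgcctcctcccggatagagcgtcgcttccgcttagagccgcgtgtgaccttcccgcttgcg
Mrps24: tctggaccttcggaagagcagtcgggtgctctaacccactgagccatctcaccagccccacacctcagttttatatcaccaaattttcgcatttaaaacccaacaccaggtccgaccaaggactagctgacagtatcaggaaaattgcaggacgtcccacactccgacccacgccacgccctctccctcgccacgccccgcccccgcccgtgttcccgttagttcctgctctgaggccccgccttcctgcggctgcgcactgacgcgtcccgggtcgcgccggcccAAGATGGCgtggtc
Mrps12: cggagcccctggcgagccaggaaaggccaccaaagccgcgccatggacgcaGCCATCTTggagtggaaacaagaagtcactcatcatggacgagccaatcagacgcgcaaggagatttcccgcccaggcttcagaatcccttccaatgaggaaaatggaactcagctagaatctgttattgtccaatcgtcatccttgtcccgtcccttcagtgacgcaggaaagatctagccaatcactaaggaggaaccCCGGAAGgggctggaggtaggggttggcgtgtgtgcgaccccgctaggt

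Over all windows, the ETS motif was in 34.7% of those of members and 15.4% of those of kept genes, the NRF1 motif in 17.3% and 8.9%, and the YY1 motif in 16.0% and 3.96%. At least 1 of the 3 was in 57.3% of the windows of members, against 25.2%. For the large and small subunit, the ETS motif was in 31.2% and 40.7% of windows and the YY1 motif in 12.5% and 22.2%. The NRF1 motif was in 20.8% and 11.1%, so that the small subunit lay near the share of kept genes for it. With both subunits pooled, the other 3 motifs were nearer the background, the E-box (CACGTG) at 9.33% and 9.49%, CCAAT at 40.0% and 37.2% and the GC box (GGGCGG) at 52.0% and 60.2%. For these other motifs the subunits lay on opposite sides of the background. For the large and small subunit, the E-box was in 12.5% and 3.7% of windows, CCAAT in 35.4% and 48.1% and the GC box in 43.8% and 66.7%. These differences were not tested. The median position was 17 bases upstream of the start for ETS, 43 upstream for NRF1 and 16 downstream for YY1. Members with and without a motif had medians between running and CUS of -0.23 and -0.27 for ETS, -0.24 and -0.25 for NRF1 and -0.24 and -0.25 for YY1. A match describes letters in the window and shows neither binding nor a cause. Mrpl46 and Mrps11, which share the region between them, had log2 differences of -0.44 and -0.23.

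In the CUS model compared with the control, all 78 members had a higher mean level, and again none passed the test on its own. The median log2 difference was 0.15 for the large and 0.18 for the small subunit, against 0.02 over kept genes, of which 55.9% were higher. With limma 0 members were called at an adjusted p under 0.05, where 0.00714% of kept genes were called, and the smallest adjusted p was 0.234. At an unadjusted p under 0.05, 16 large and 8 small subunit genes were higher (30.8% of members), against 8.9% of kept genes. The CUS values lay entirely above the control values for 18 large and 6 small subunit genes, 24 in all, against 12.1% of kept genes. This comparison shares the CUS libraries with the previous one, so both move with the same 3 samples. Without CUS replicate 3, 71 members were higher and 7 lower, and the medians were 0.08 and 0.09. The count at an unadjusted p under 0.05 was then 13, against 5.79% of kept genes. It was 11 without control replicate 1, 9 without control replicate 2 and 42 without CUS replicate 2, against 4.72%, 5.99% and 14.6% of kept genes.

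The smallest p was that of Mrps6, whose CUS values of 28.40, 31.00 and 34.17 FPKM stood above control values of 25.25, 23.15 and 22.78. Its log2 difference was 0.38 (SE 0.0765, limma adjusted p = 0.234), and 0.32 without CUS replicate 3. Mrps18c had 44.72, 45.76 and 60.06 FPKM in CUS and 38.47, 34.65 and 42.45 in control libraries, without overlap (log2 0.37, SE 0.108), and 0.23 without CUS replicate 3. Mrps24, Mrps11 and Mrps16 had log2 differences of 0.27, 0.22 and 0.30. Mrps11 averaged 18.3 ± 1.37 FPKM in CUS and 15.6 ± 0.612 in control libraries (SD, n = 3 each), and its difference was 0.22 with and without CUS replicate 3.

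In the large subunit, Mrpl15 averaged 8.89 ± 0.75 FPKM in CUS and 7.39 ± 0.166 in control libraries (SD, n = 3 each), which put CUS higher by log2 0.25 (SE 0.0712, limma adjusted p = 0.255). Mrpl2 and Mrpl46 had log2 differences of 0.27 and 0.23. Mrpl22, which lines the tunnel of the nascent chain, had 24.77, 22.39 and 29.59 FPKM in CUS and 21.49, 17.48 and 21.11 in control libraries, without overlap (log2 0.34, SE 0.11). Mrpl13 had 38.30, 34.37 and 45.86 FPKM in CUS and 30.74, 31.09 and 34.56 in control libraries, where CUS replicate 2 lay below the highest control (log2 0.29, SE 0.0938).

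In the running model compared with the control, most members had a slightly lower mean level, and none passed the test. There were 64 members lower and 14 higher, with a median of -0.09 for the large and -0.05 for the small subunit, against -0.02 over kept genes, of which 56.2% were lower. With limma 0 members were called, where 0.0214% of kept genes were, and the smallest adjusted p was 0.254. At an unadjusted p under 0.05 there were 3 members, all lower, which is 3.85% against 6.47% of kept genes. The running values lay below all control values for 9 members (11.5%), against 11.9% of kept genes. The split of lower and higher members depended on the scaling: it was 50 to 28 after rescaling to TPM, 49 to 29 and 48 to 30 after removal of the length and GC trend of the median and of the longest transcript, and 56 to 22 with quantile normalization. Without control replicate 3 it was 48 to 30.

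The 3 members were Mrpl53, Mrpl46 and Mrps34. Mrpl53 averaged 24.8 ± 2.42 FPKM in running and 29.2 ± 0.14 in control libraries (SD, n = 3 each), with log2 -0.24 between them (SE 0.0687, limma adjusted p = 0.254). Mrpl46 averaged 15.3 ± 0.511 FPKM in running and 17.9 ± 0.582 in control libraries (SD, n = 3 each), with log2 -0.21 between them (SE 0.0754, limma adjusted p = 0.321). Mrps34 had a log2 difference of -0.19 (limma adjusted p = 0.354). In the other direction, Mrpl1 was at 7.13, 6.39 and 6.74 FPKM in running and 5.94, 6.39 and 5.63 in control libraries (log2 0.16, SE 0.0987), with a tie at 6.39. Mrpl50, Mrpl49, Mrps6, Mrps2 and Mrps22 had log2 differences of 0.07, 0.06, 0.10, 0.08 and 0.06, each within 2 SE of 0.

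Ordered by group mean, CUS was the highest group for all 78 members. The order was CUS, control, running for 64 members (82.1%), against 28.4% of kept genes. It was CUS, running, control for the other 14 (17.9%), near the 16.1% of kept genes. These orders include CUS replicate 3. Without it, 3 members were higher in running than in CUS on the log2 scale, and some were lower in CUS than in control.

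Other genes of mitochondrial gene expression had medians nearer 0 between running and CUS, a difference between lists that was not tested, and 0 of them were called with limma at an adjusted p under 0.05. The 5 mitochondrial ribosomal proteins with other symbols were all lower, with a median of -0.18 and an unadjusted p under 0.05 for 3 of them. Over kept genes, 57.8% were lower and 42.2% higher, and 15.7% were lower and 7.74% higher at an unadjusted p under 0.05. Aurkaip1 had 38.85, 35.78 and 34.88 FPKM in running and 43.74, 41.25 and 52.57 in CUS libraries, without overlap (log2 -0.32), and Chchd1 and Dap3 had log2 differences of -0.40 and -0.15. Of 26 genes for ribosome assembly and RNA modification, 20 were lower and 6 higher (median -0.12), with an unadjusted p under 0.05 for 8 lower genes (30.8%, against 15.7% of kept genes) and 1 higher gene (3.85%, against 7.74%). The 3 with the smallest p were Malsu1, which keeps the subunits from joining early, and the GTPase Mtg1 and the helicase Ddx28, both needed for large subunit assembly, at -0.31, -0.32 and -0.30.

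Of 15 translation factors and related genes, 12 were lower (median -0.05), 4 of them at an unadjusted p under 0.05 (26.7%, against 15.7% of kept genes), among them the elongation GTPase Guf1 at -0.34, the insertase Oxa1l at -0.18 and the release factor Mtrf1 at -0.22. Of 20 genes for charging of mitochondrial tRNAs, 12 were lower (60.0%, against 57.8% of kept genes, median -0.04) and 3 had an unadjusted p under 0.05, the synthetase genes Fars2, Sars2 and Hars2. That share of 15.0% was near the 15.7% of kept genes. Of 20 genes of mitochondrial DNA maintenance, transcription and RNA handling, 16 were lower (median -0.13), where 57.8% of kept genes were. With 3 at an unadjusted p under 0.05, their share of 15.0% was also near that of kept genes. They included the ribonuclease Pnpt1 at -0.30, the RNA-stabilising Slirp at -0.44 and the elongation factor Tefm at -0.29. The 9 nuclear regulators of mitochondrial biogenesis leaned the other way, with 7 higher in running and a median of 0.13, and 1 of them, the coactivator gene Pprc1 (log2 0.25, limma adjusted p = 0.151), had an unadjusted p under 0.05 (11.1%, against 7.74% of kept genes). Gabpa and the coactivator gene Ppargc1a had log2 differences of 0.13 and 0.16.

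**Figure D5:**
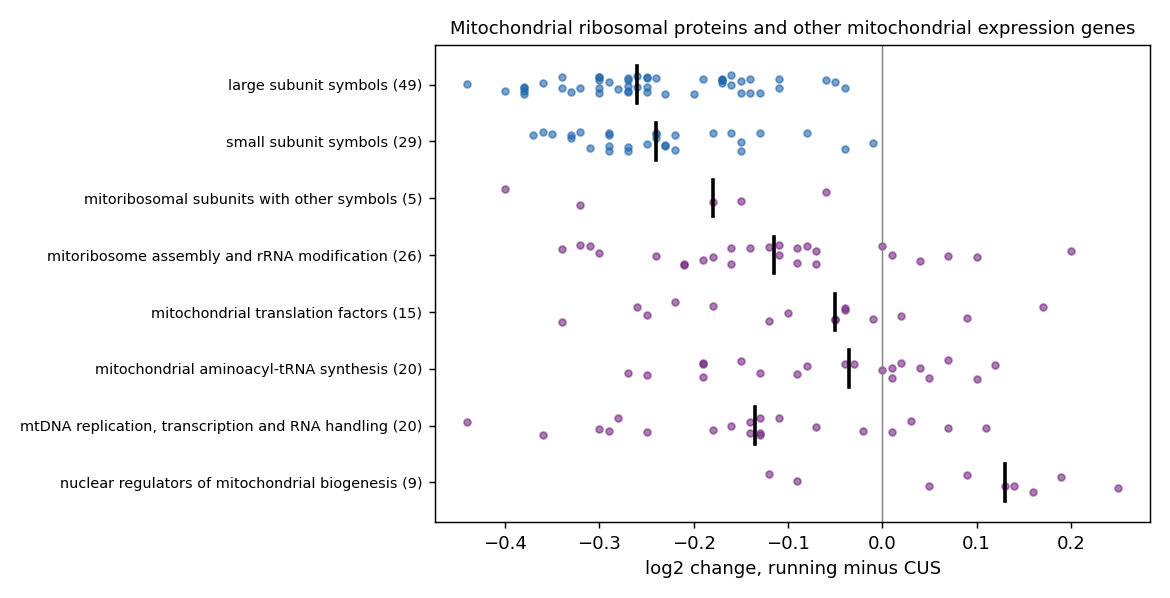
Log2 difference between running and CUS of each gene in the 2 subunit groups (blue) and in 6 other lists of mitochondrial gene expression (purple), with the median as a black bar and the number of genes in brackets. Medians run from -0.26 for the large subunit to 0.13 for the nuclear regulators.

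The members moved in the same direction as the cytosolic ribosomal proteins and complex I of the respiratory chain. Between running and CUS, 80 of 80 cytosolic ribosomal protein genes and 37 of 37 complex I genes were lower, against 57.8% of kept genes. Their medians were -0.36 and -0.32. On the score that weighs each gene alike, CUS replicate 3 stood at 0.47 for the cytosolic and 0.36 for the complex I set. CUS replicate 1 stood at 0.07 and 0.14, and CUS replicate 2 at 0.03 and 0.01, so these medians lean on CUS replicate 3. Between CUS and control the medians of the cytosolic and complex I sets were 0.22 and 0.20, against 0.17 for the 78 members, again with CUS replicate 3 included. Whether the 3 sets differ in size of change was not tested.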

How the data were processed

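RNA from 9 libraries was selected on oligo(dT) beads and primed at random, per the labels' protocols, which state no strand marking. DESeq2 1.4.5, RSEM 1.2.12, Bowtie2 2.2.5 and build mm10 are named per the submitters' processing notes. The sources used here do not say which tool made which value. FPKM values were deposited by the authors, rounded to 2 decimals, so read depth is unknown and no counting interval could be given. Overlapping genes may share fragments: the span of 25 members overlaps another RefSeq gene, and that of 19 a kept gene.

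Values were used as log2(FPKM + 0.5), a scale that understates the change of low genes. Genes of the NCBI type (35125 of 65389 rows) were kept at 0.5 FPKM in at least 3 libraries. limma 3.58.1 in R 4.3.3 fitted 1 model of the 3 groups with an intensity trend (6 residual degrees of freedom, two-sided tests, Benjamini-Hochberg over 14013 genes, call at an adjusted p under 0.05). The code was run on simulated data with independent noise and with changes larger than that of any member. That run does not show how well changes of the members' size are called. An exact permutation test of 3 against 3 libraries cannot go below p = 0.1. Summaries and motif searches used Python 3.11.15 with pandas 2.3.3. Lengths came from GENCODE transcripts of GRCm38, for 98.2% of kept genes.

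The members and lists were chosen with earlier results of these data known, so no p is given over a list. Genes named are, for each comparison and subunit, the 5 with the smallest unadjusted p and up to 3 farthest against the majority, the 3 highest and 3 lowest in level per subunit, members set for their roles, and up to 3 genes of each other list with the smallest p between running and CUS. Marker genes are named where they were the highest of their list, after their values were seen. Replicates were numbered in order of listing. Alternatives were other pseudocounts (0.1, 1), filters, TPM and quantile scaling, removal of length and GC trends, no intensity trend, library weights, a model of the 2 groups compared and leaving out each library.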

Additional observations from a re-analysis of the deposited data

How the results depend on the processing

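The subunit medians kept their sign under each alternative between running and CUS and between CUS and control. Between running and control the small subunit median reached -0.00 with the longest transcript's length and GC trend removed and without control replicate 3, and 0 members were called under alternatives other than library quality weights and leaving out CUS replicate 2. No paired analysis was possible because the sample names give at most 1 number shared between any 2 groups. Genes called between running and CUS (1 as reported) numbered 0 with no filter, 3 with the filter of 1 FPKM in each library, 3 after rescaling to TPM, 2 with quantile normalization, 2 with the length and GC trend removed, 0 with that of the longest transcript (chosen after seeing the data), 2178 with quality weights, 15 with the model of the 2 groups, and 0 to 1518 without 1 library. Members called there numbered 26 with quality weights and 0 to 26 without 1 library. Genes called between CUS and control (1) numbered 0 with the filter of 1 FPKM, 0 with either trend removed, 8 with quality weights and 1 to 6 without 1 library. Genes called between running and control (3) numbered 1 with no filter, 9 with the length and GC trend removed, 14 with that of the longest transcript, 7 without the intensity trend, 147 with quality weights, 24 with the model of the 2 groups and 1 to 10 without 1 library. The large subunit median between running and control was -0.02 with the trend of the longest transcript removed. Over all 78 members, those higher in running than in CUS (0 as reported) numbered 6 after rescaling to TPM, 1 with quantile normalization, 4 and 12 with the trend of the median and of the longest transcript removed, 4 with quality weights, 3 without CUS replicate 3 and 1 without running replicate 2. Those lower in CUS than in control (0) numbered 1, 0, 2, 4 and 3 under the first 5 of these, 7 without CUS replicate 3 and 1 without control replicate 2. None changed sign in these 2 comparisons under the other alternatives. Of members whose difference between running and CUS is given one by one, Mrps36 changed sign with the longest-transcript trend removed (0.02), as did Mrpl1 (0.03), Mrpl50 (0.11) and Mrps2 (0.06). After rescaling to TPM, Mrpl1 stood at 0.05, Mrpl19 at 0.03, Mrpl50 at 0.05 and Mrps2 at 0.09. With quality weights Mrpl1 stood at 0.03, Mrpl50 at 0.00 and Mrps2 at 0.07. Mrpl19 stood at 0.03 with the length and GC trend removed, and Mrps2 at 0.03 with quantile normalization. Without 1 library, Mrpl1 ranged from -0.11 to 0.07, Mrpl50 from -0.14 to 0.05 and Mrps2 from -0.05 to 0.06. In the other comparisons, named members that changed sign were Mrpl58 between CUS and control (-0.01 with quality weights, and -0.00 without CUS replicate 3 within a range up to 0.15 without 1 library) and Mrps22 between running and control (-0.00 without running replicate 1 within a range up to 0.10). The cause of these moves was not tested. Depth is unknown, and 3 libraries a group limit the precision of every difference.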
